A study of Mus musculus with 6 samples.

Results

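The genes described here are 39 genes of fatty acid synthesis, triglyceride assembly, lipid droplets and their breakdown, out of 54532 genes in the deposited table of mouse heart RNA. They were taken by symbol from a named list, so no measured value chose them, and all 39 were found. RNA was sequenced from 6 heart samples that the sample titles place at day 4 and that are all wild-type ICR, an outbred mouse stock. The 3 control samples came from offspring whose mothers received citric acid intraperitoneally while pregnant, and the 3 STZ samples from offspring whose mothers received STZ (read as streptozotocin, which destroys insulin-making cells) by the same route. The series concerns diabetes in pregnancy and the hearts of the offspring, so the question for these genes was whether the lipid-making and lipid-storing programme of the newborn heart differed with the mother's treatment. The labels give neither the litter nor the sex of a sample, and do not say whether samples of a group came from separate animals. The p-values therefore measure the spread between these 6 samples, which may be technical in part.

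Cells make fatty acids from citrate-derived acetyl-CoA, which acetyl-CoA carboxylase converts to malonyl-CoA and fatty acid synthase extends to palmitate. Elongases and desaturases then lengthen and unsaturate the chain, a series of acyltransferases and phosphatases joins fatty acids to glycerol as triglyceride, and coat proteins hold the triglyceride in lipid droplets from which lipases release it. The heart mainly burns fatty acids taken up from the blood. There malonyl-CoA is best known as a brake on the entry of fatty acids into mitochondria, and droplets serve as a buffer between uptake and oxidation, whereas fat cells run the whole pathway at a high rate.

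Values are FPKM, reads per unit of gene length and per unit of a library scale set by the authors, and correspond to between 16707268 and 18082599 reads per library. Marker genes of heart muscle were abundant in every library: the summed level of 10 cardiomyocyte markers was 15455 to 18462 FPKM in 5 libraries. Control 2 stood apart. Its cardiomyocyte sum was 8091 FPKM, and each of the 10 markers was lowest there. Its atrial marker sum was 6356 FPKM against 66.7 to 142 in the other 5 libraries, its erythroid sum 14548 against 2229 to 4927, its fibroblast sum 1859 against 860 to 1091, its macrophage sum 110 against 44.6 to 56.7 and its endothelial sum 322 against 419 to 489. A list of thymus, lung and liver genes summed to 58.1 FPKM in control 2 and to between 0.674 and 3.55 elsewhere, nearly all of it from the thymus genes Rag1 at 25.5, Cd8a at 24.9, Cd3e at 3.41 and Ptcra at 2.44 FPKM, while each lung and liver gene was under 1 FPKM in control 2. The fibroblast sums also lay apart by group outside control 2, at 955 and 1091 FPKM in controls 1 and 3 and 860 to 923 in STZ hearts. Without control 2, all 10 fibroblast markers had a negative log2 fold change, STZ over control (median -0.17), where 49.4% of all genes tested were positive. Of the 10, 0 passed the threshold given below, and the bearing on the lipid genes was not tested. Fat cell markers, which bear directly on the genes described here, are given with control 2 further on. In bulk RNA, fewer cells of a type and less RNA per cell cannot be told apart. The comparison of the groups, and the genes in which control 2 lay apart, are given below with and without it.

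No lipid synthesis, triglyceride or droplet gene differed between STZ and control hearts past the threshold. Of the 39 genes, 36 reached 1 FPKM in at least 3 libraries and were tested, while Cidec, Elovl7 and Lpin3 were too low. The test was limma on log2(FPKM + 1) over 12431 genes, with a threshold of 0.05 on the Benjamini-Hochberg (BH) adjusted p, which called 0.0241% of all genes tested. It called 0 of the 36, whose smallest adjusted p was 0.922, and 0 of them reached an unadjusted p under 0.05, against 2.59% of all genes. Fold changes on this scale were positive for 20 of the 36 genes and negative for 16, where 57.7% of all genes tested were positive. Their median log2 fold change, STZ over control, was 0.026, beside 0.031 for all genes tested.

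Without control 2 the same comparison of 2 control and 3 STZ libraries again called 0 of the 36 genes (limma, smallest BH-adjusted p 0.9999), with 0.0322% of all genes called. Of the 36, 2 (Acacb and Lipe) had an unadjusted p under 0.05, against 3.93% of all genes tested. The fold changes then split 17 positive to 19 negative, with 49.4% of all genes positive, and the median was -0.016, beside -0.0016 for all genes. The sign of the fold change differed between the fits with and without control 2 in 15 of the 36 genes. The 95% confidence intervals of the difference are on the log2(FPKM + 1) scale, so a low gene can vary by more than this in FPKM. On that scale the interval lay within 2-fold either way for 33 of the 36 genes with all libraries and for 36 without control 2. It lay within 1.5-fold on that scale for 19 genes with all libraries and for 35 without control 2. The exception there was G0s2, whose interval without control 2 ran from -0.43 to 0.84.

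**Figure D1:**
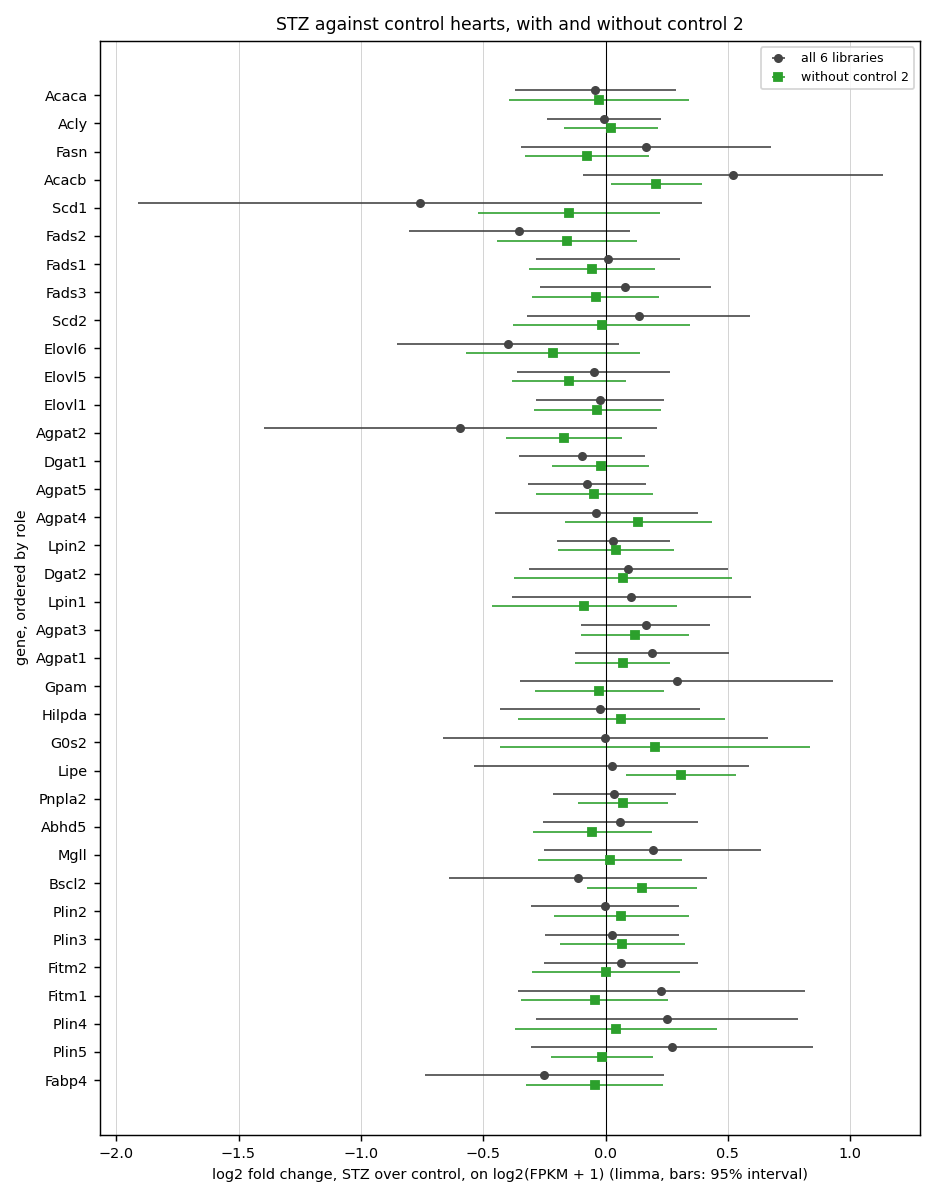
Log2 fold change of each tested gene, STZ over control on the log2(FPKM + 1) scale (x axis), with bars for the 95% confidence interval from limma, with all 6 libraries and without control 2; genes are grouped by role (y axis). The intervals are widest for Scd1, from -1.91 to 0.39, and Agpat2, from -1.40 to 0.21, with all libraries and shorten without control 2, and in the all-library fit every interval includes 0.

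Among the enzymes that make the fatty acid, Acacb was the member with the largest positive difference. Acacb (ENSMUSG00000042010, GRCm38, chromosome 5, 114146535 to 114250761, plus strand) is the acetyl-CoA carboxylase of the mitochondrial outer membrane, whose malonyl-CoA restrains mitochondrial fatty acid uptake. It stood at 22.8, 11.7 and 23.8 FPKM in controls 1 to 3 and at 27.3, 26.0 and 27.8 FPKM in STZ 1 to 3. The groups did not overlap, and control 2 was the low library. The means were 19.4 ± 6.75 and 27.1 ± 0.913 FPKM (SD, n = 3 each), a log2 fold change of 0.52 (SE 0.258, 95% interval -0.09 to 1.13; limma, adjusted p = 0.922; exact permutation p = 0.1, two-sided, the smallest that 3 against 3 libraries allow). Without control 2 the log2 fold change was 0.21 (SE 0.0770, 95% interval 0.02 to 0.39; limma, adjusted p = 0.9999). Acacb was 1 of 36 tested genes in which the lowest STZ value exceeded the highest control value, where 4.92% of all genes tested were so, and in either direction the share was 8.54%.

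The cytosolic carboxylase Acaca, which supplies synthesis itself, was far lower per length, at 1.95, 2.05 and 1.96 FPKM in controls and 2.11, 1.44 and 2.22 in STZ hearts. Its values overlapped, with a log2 fold change of -0.04 (SE 0.138). Acly, which splits citrate to acetyl-CoA, was among the steadiest genes of the set, at 18.3, 19.0 and 17.5 FPKM in controls and 18.0, 19.1 and 17.5 in STZ hearts. Its log2 fold change of -0.01 had a 95% interval of -0.24 to 0.23, and control 2 did not stand apart. Fasn, the synthase, was at 17.8, 9.34 and 14.5 FPKM in controls and 14.9, 14.9 and 15.9 in STZ hearts, so that control 2 was again the lowest. Its log2 fold change was 0.17 (SE 0.215) with control 2 and -0.075 without it.

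Of the desaturases, which place double bonds in the chain, Scd2 was the most abundant and Scd1 the most variable. Scd2 was at 100.4, 62.5 and 73.6 FPKM in controls and 86.4, 91.1 and 78.0 in STZ hearts, or 78.8 ± 19.5 against 85.2 ± 6.65 FPKM (SD, n = 3 each). The groups overlapped, and its log2 fold change was 0.13 (SE 0.192), or -0.017 without control 2. Scd1, the stearoyl-CoA desaturase best known from liver and fat, was at 2.75, 11.5 and 2.33 FPKM in controls and 1.71, 2.26 and 2.64 in STZ hearts. Only control 2 was high: the log2 fold change of -0.76 (SE 0.485, 95% interval -1.91 to 0.39) became -0.15 (SE 0.154) without it. The ratio of Scd2 to Scd1 was thus 5.42 in control 2 and 29.5 to 50.6 in the other 5 libraries. Of the 50-base windows of their transcripts, 4.56% of those of Scd1 and 3.97% of those of Scd2 occur in another gene.

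Fads1 and Fads2 desaturate polyunsaturated chains. Fads1 was at 22.7, 18.5 and 20.2 FPKM in controls and 20.6, 18.7 and 22.5 in STZ hearts, with a log2 fold change of 0.01. Fads2 ran from 11.5 to 19.0 FPKM in controls, highest in control 2, and from 9.63 to 12.1 in STZ hearts, with a log2 fold change of -0.35 (SE 0.190), or -0.16 without control 2. Fads3, a related protein, ran from 17.9 to 25.5 FPKM in controls and from 21.6 to 24.6 in STZ hearts, with a log2 fold change of 0.08.

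Of the elongases, Elovl5, which acts on polyunsaturated chains, was at 24.1, 18.9 and 22.9 FPKM in controls and 22.4, 22.02 and 19.1 in STZ hearts. The groups overlapped only through control 2, and the other controls lay above every STZ value (log2 fold change without control 2 -0.15, SE 0.0964). Elovl1, an elongase of very long saturated chains, was at 10.8, 11.7 and 13.2 FPKM in controls and 11.3, 12.4 and 11.2 in STZ hearts, with overlapping groups. Elovl6, which extends palmitate, was at 1.95, 3.26 and 1.88 FPKM in controls and 1.40, 1.26 and 1.92 in STZ hearts, with a log2 fold change of -0.40 (SE 0.191, 95% interval -0.85 to 0.06), or -0.22 without control 2. Elovl7 was at 0.266, 0.559 and 0.313 FPKM in controls and 0.0841, 0.237 and 0.121 in STZ hearts, so the groups did not overlap. These values rest on 18, 48 and 22 reads in controls and 6, 16 and 9 reads in STZ hearts, and the gene was below the filter. With no filter its log2(FPKM + 1) difference was -0.26 (limma, adjusted p = 0.868), and the exact permutation p was 0.1.

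Glycerolipid assembly begins with Gpam, the mitochondrial enzyme that adds the first fatty acid to glycerol phosphate. Gpam was at 34.7, 19.2 and 41.5 FPKM in controls and 35.7, 40.3 and 36.1 in STZ hearts, or 31.8 ± 11.5 against 37.4 ± 2.58 FPKM (SD, n = 3 each). Control 2 was low and the other controls bracketed the STZ values, so the log2 fold change was 0.29 (SE 0.269) with control 2 and -0.026 without it. The next enzymes, the Agpat family, add the next fatty acid. Agpat3 was the most abundant of these, at 31.1, 27.0 and 28.2 FPKM in controls and 32.6, 34.0 and 30.2 in STZ hearts, or 28.7 ± 2.11 against 32.3 ± 1.90 FPKM (SD, n = 3 each). Its groups overlapped only through control 1 and STZ 3, and the log2 fold change was 0.16 (SE 0.111), or 0.12 without control 2.

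Agpat2 (ENSMUSG00000026922, GRCm38, chromosome 2, 26593057 to 26604417, minus strand) is the family member whose loss causes congenital lipodystrophy in humans. It was at 8.31, 21.03 and 7.99 FPKM in controls and 6.47, 7.15 and 7.82 in STZ hearts. The groups did not overlap, the nearest values being those of control 3 and STZ 3, and control 2 was the high library. Agpat2 was 1 of 36 tested genes with every STZ value below every control value, where 3.62% of all genes tested were so. The means were 12.4 ± 7.44 and 7.15 ± 0.677 FPKM (SD, n = 3 each), and the log2 fold change was -0.59 (SE 0.339, 95% interval -1.40 to 0.21; limma, adjusted p = 0.922; exact permutation p = 0.1, two-sided). Without control 2 it was -0.17 (SE 0.0976, 95% interval -0.41 to 0.07). Agpat2 overlaps Egfl7, an endothelial gene on the opposite strand, which lay between 20.3 and 24.7 FPKM in all 6 libraries. The strand setting of the counting is not given, so reads in the overlap cannot be assigned.

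The other assembly genes tested had log2 fold changes between -0.10 and 0.19. Agpat1 ran from 13.2 to 17.7 FPKM in controls and from 17.4 to 19.1 in STZ hearts (log2 fold change 0.19, SE 0.133). Agpat4 (log2 fold change -0.04) and Agpat5 (-0.08) stayed between 2.31 and 4.10 FPKM in all libraries. Lpin1, a phosphatidate phosphatase that also acts as a coactivator of oxidation genes, ran from 3.60 to 6.42 FPKM in controls and from 4.39 to 6.44 in STZ hearts. Lpin2, its relative, was nearly constant at 2.18 to 2.31 and 2.25 to 2.40 FPKM, with a log2 fold change of 0.03 (SE 0.0976). Lpin3 was below the filter, at 0.747 to 1.11 FPKM in controls and 0.487 to 1.10 in STZ hearts (exact permutation p = 0.4). Dgat1 and Dgat2, unrelated enzymes that both add the last fatty acid, had log2 fold changes of -0.10 (SE 0.108) and 0.09 (SE 0.171), from levels of 8.71 to 10.9 and 14.7 to 22.3 FPKM over the 6 libraries.

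Among the lipases and their regulators, Mgll, which cleaves the last fatty acid from glycerol, was the most abundant at 61.2, 38.8 and 51.6 FPKM in controls and 60.3, 60.4 and 50.7 in STZ hearts. The groups overlapped, control 2 was the lowest, and the log2 fold change was 0.19 (SE 0.187), or 0.018 without control 2. Pnpla2, the triglyceride lipase ATGL, was at 48.9, 50.9 and 45.8 FPKM in controls and 49.3, 50.3 and 49.6 in STZ hearts. It was the steadiest gene of the set over the 5 libraries other than control 2, with a coefficient of variation of 3.61%, and control 2 was the highest by a narrow margin. Its log2 fold change was 0.04 (95% interval -0.22 to 0.29).

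Lipe (ENSMUSG00000003123, GRCm38, chromosome 7, 25379527 to 25398710, minus strand) is hormone-sensitive lipase, which cleaves diglycerides and is abundant in fat. It was at 5.72, 10.8 and 5.42 FPKM in controls and 7.50, 6.52 and 7.42 in STZ hearts. The 3 STZ values lay between controls 1 and 3 on one side and control 2 on the other. With all libraries the log2 fold change was 0.03 (SE 0.236, 95% interval -0.54 to 0.59). Without control 2 it was 0.31 (SE 0.0922, 95% interval 0.08 to 0.53; limma, adjusted p = 0.9999), and it did not pass the threshold. The protein partners of Pnpla2 showed no difference beyond their spread: its coactivator Abhd5 had a log2 fold change of 0.06, its inhibitor Hilpda one of -0.02, and its inhibitor G0s2 one of -0.00 (SE 0.280, 95% interval -0.66 to 0.66). G0s2 was at 18.0, 23.2 and 12.2 FPKM in controls and 22.3, 18.4 and 12.4 in STZ hearts, so its libraries differed within each group by more than the groups did.

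Of the droplet proteins, Fitm1, which helps droplets bud in muscle, was the most abundant at 69.7, 34.6 and 54.7 FPKM in controls and 62.4, 61.7 and 55.6 in STZ hearts. Plin5, the coat protein of oxidative tissues that links droplets to mitochondria, was at 29.3, 14.9 and 26.7 FPKM in controls and 27.4, 29.1 and 26.6 in STZ hearts. In both, control 2 alone was low, and the other controls lay on either side of the STZ values or among them. Their log2 fold changes were 0.23 (SE 0.247) and 0.27 (SE 0.242), and -0.045 and -0.016 without control 2. In Plin4, a coat protein of fat and muscle, control 2 was again the lowest, with 8.86 FPKM in control 2, 11.9 and 17.0 in the other controls and 13.5 to 17.1 in STZ hearts.

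Plin2 and Plin3, coat proteins made in most cells, did not set control 2 apart. Plin2 was at 13.9, 17.0 and 15.5 FPKM in controls and 13.7, 17.2 and 15.4 in STZ hearts, with a log2 fold change of -0.00 (SE 0.127), and Plin3 ran from 13.3 to 15.8 and from 14.4 to 16.5 FPKM. The ratio of Plin5 to Plin2 was accordingly 0.877 in control 2 and 1.69 to 2.11 in the other 5 libraries. Its size depends on the lengths used for division, 1.86 times the longest coding transcript for Plin2 and 1.05 times for Plin5. Fitm2, the relative of Fitm1 made in many tissues, ran from 15.4 to 19.3 FPKM in controls and from 16.2 to 19.7 in STZ hearts, and the ratio of Fitm1 to Fitm2 was 2.25 in control 2 and 3.16 to 3.81 elsewhere. Bscl2, which encodes the droplet-forming protein seipin, was at 2.88, 5.90 and 3.12 FPKM in controls and 3.33, 3.36 and 3.62 in STZ hearts, with a log2 fold change of -0.11 (SE 0.221), or 0.15 without control 2.

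Fabp4, a fatty acid carrier of fat cells, macrophages and capillary endothelium, had the highest mean FPKM of the set over the 6 libraries, which rested on control 2: in each of the other 5 libraries Scd2 was higher. It was at 87.6, 123 and 73.0 FPKM in controls and 78.3, 83.5 and 71.2 in STZ hearts, or 94.6 ± 25.8 against 77.7 ± 6.19 FPKM (SD, n = 3 each). Control 2 was the highest library and the groups overlapped. The log2 fold change was -0.25 (SE 0.206, 95% interval -0.74 to 0.24), or -0.045 without control 2.

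Without control 2, 4 tested genes had every STZ value above the remaining 2 controls (Acacb, Pnpla2, Lipe and Bscl2), where 9.16% of all genes tested did. Another 2 (Agpat2 and Elovl5) had every STZ value below them, where 8.55% of all genes did.

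**Figure D2:**
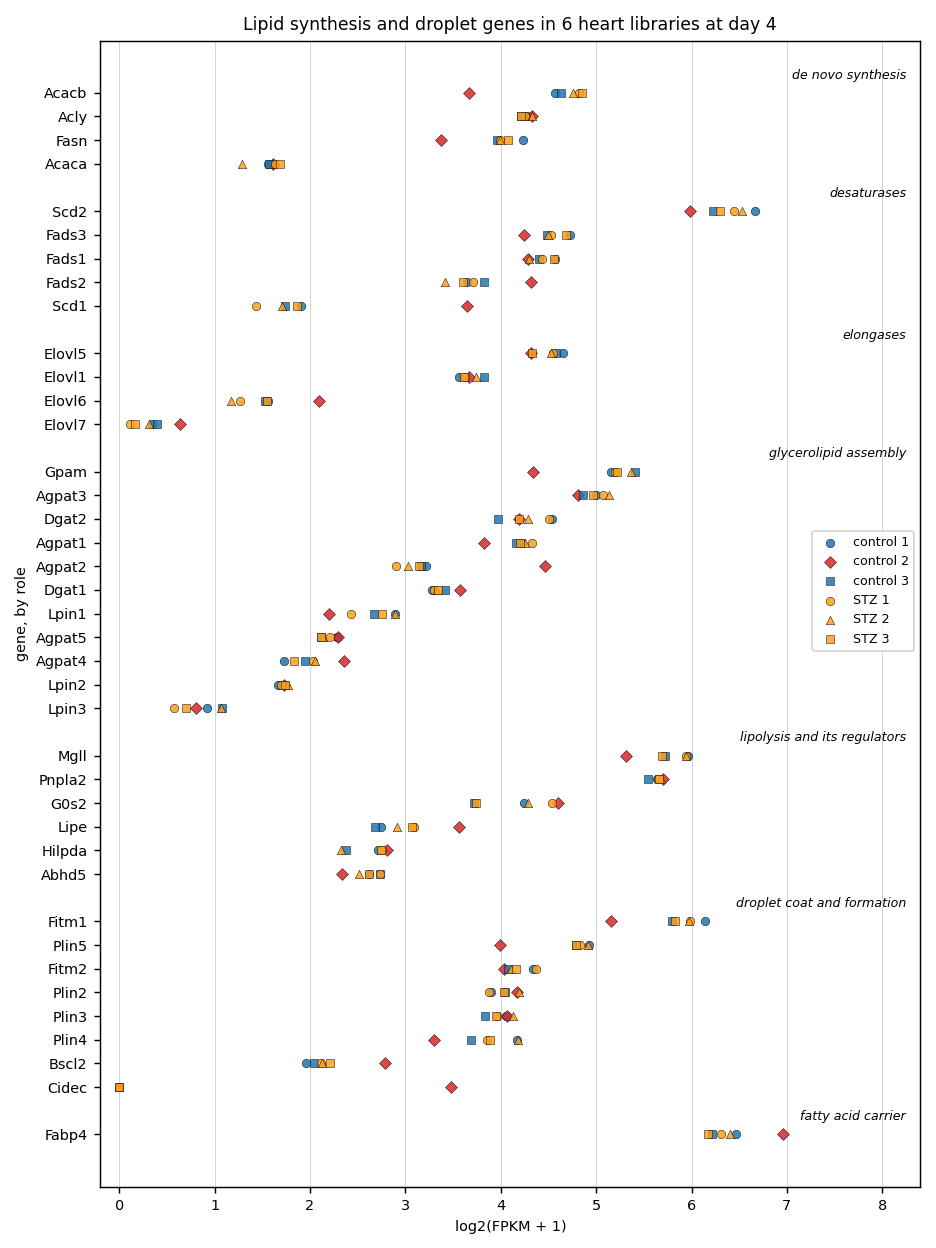
Level of each of the 39 genes as log2(FPKM + 1) (x axis), with genes grouped by role (y axis) and 1 point per library; control libraries are blue, STZ libraries orange and control 2 a red diamond. For Cidec, Scd1 and Agpat2 control 2 lies far to the right of the other 5 libraries, and for Acacb, Fasn, Gpam, Fitm1 and Plin5 it lies to the left.

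The set as a whole spanned a wide range of levels. Per length, the mean over the 6 libraries was highest for Fabp4 at 86.1 FPKM, followed by Scd2 at 82.0, Fitm1 at 56.4, Mgll at 53.8, Pnpla2 at 49.1, Gpam at 34.6, Agpat3 at 30.5, Plin5 at 25.7 and Acacb at 23.2. Over the 5 libraries other than control 2 the first pair changed places, with Scd2 at 85.9 and Fabp4 at 78.7 FPKM. Of the 38 neighbouring pairs in that order, only 1 did not overlap over the 6 libraries: the lowest Pnpla2 value, 45.8 FPKM, lay above the highest of Gpam, 41.5. Acacb and Fitm1, the paralogs typical of muscle, exceeded Acaca and Fitm2 in every library, by a ratio of 5.70 to 18.1 for Acacb over Acaca and of 2.25 to 3.81 for Fitm1 over Fitm2. These levels depend on the length by which the authors divided. For Fabp4 that length is 4489 bases, the whole span of the gene, where the longest coding transcript in GENCODE M21 has 896. If all its reads lay on that transcript, its mean would be 432 FPKM. Bscl2 and Lpin2 were also divided by more than 2 times that transcript's length (3.01 and 2.17 times). For Acaca and Acacb the factors were 1.795 and 1.096. With all reads on that transcript their means would be 3.51 and 25.5 FPKM, so the size of their ratio depends on the lengths too. In the other direction, Fads2 and Gpam were divided by 0.479 and 0.621 times that length. Their deposited positions differ from GENCODE M21, and reads outside the shorter model may not have been counted. Their levels on that transcript, and so their place in the order, cannot be given. Acaca shares 30.4% of its 50-base windows with other genes, mostly the pseudogene Gm5182, so its level is uncertain. Elovl1, Plin4 and G0s2 overlap expressed genes on the opposite strand (Cdc20 at 27.1, Hdgfl2 at 7.65 and Lamb3 at 1.60 FPKM).

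In control 2 some of the lipid genes were high and others low. Compared with the mean of controls 1 and 3 on the log2(FPKM + 1) scale, with 1 library and so no test, 2 of the 36 tested genes were at least 2-fold higher in control 2: Scd1 by 1.83 and Agpat2 by 1.27. For all genes tested that share was 4.22%. At least 2-fold lower were 0 of the 36, against 2.7% of all genes. Next above came Lipe at 0.85, Bscl2 at 0.79, Fabp4 at 0.62, G0s2 at 0.61 and Fads2 at 0.59. The lowest were Gpam at -0.95, Acacb at -0.94, Plin5 at -0.86, Fitm1 at -0.82, Fasn at -0.73 and Plin4 at -0.63, beside a median of -0.99 over the 10 cardiomyocyte markers. Control 2 was above all 5 other libraries for 13 of the 36 genes, with 27.4% of all genes tested, and below all 5 for 16, with 41.7% of all genes.

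The authors' scale bears on these counts, because relative to recovered reads it was 1.21 in control 2, where the other libraries had 0.985 to 1.03. Rescaled to the recovered reads, the median difference of control 2 over all genes tested went from -0.082 to 0.14, and that of the 36 genes from 0.0020 to 0.23. Then 4 of the 36 genes were at least 2-fold higher and 0 at least 2-fold lower, 19 lay above and 10 below all other libraries, and Gpam, Acacb and Plin5 were at -0.69, -0.69 and -0.61. With TMM scaling of the recovered reads the values were close to those on the deposited scale: 2 genes at least 2-fold higher and 0 lower, 15 above and 14 below all other libraries, a median of 0.016, and Gpam and Acacb at -0.93 each.

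**Figure D3:**
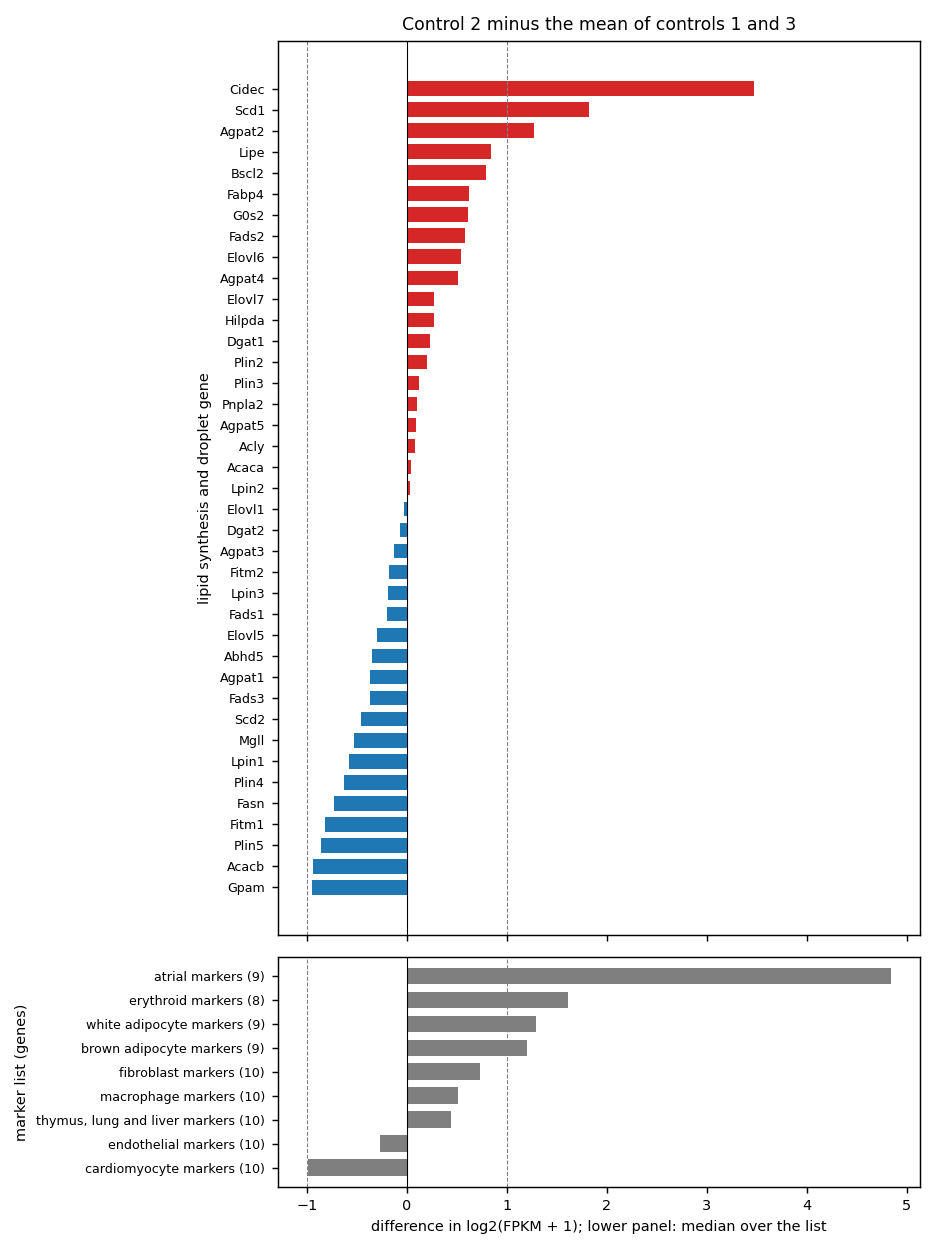
Difference of control 2 from the mean of controls 1 and 3 in log2(FPKM + 1) units (x axis; 1 library, so no error bar), for each of the 39 genes (upper panel, sorted) and as the median over each marker list (lower panel); dashed lines mark a 2-fold difference. Cidec at 3.47, Scd1 at 1.83 and Agpat2 at 1.27 lie at the top, and Gpam at -0.95 and Acacb at -0.94 at the bottom, near the cardiomyocyte median of -0.99.

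Cidec (ENSMUSG00000030278, GRCm38, chromosome 6, 113424634 to 113435760, minus strand) promotes droplet fusion in fat cells and is a marker of them. It was listed at 10.1 FPKM in control 2, from 401 reads, and at 0 in each of the other 5 libraries. Against a floor of 3 reads per library, at most 0.0962 FPKM, control 2 was at least 105-fold higher. The exact permutation p for STZ against control was 1.0. Most genes of the fat cell marker lists moved with it. Control 2 was the highest library for 9 of 9 white adipocyte markers, where it was so for 27.4% of all genes tested. All 9 were below the filter. Their sum was 59.1 FPKM in control 2 against 0.547 to 0.775 in the other 5, where 4 of the 9 were at 0. Lep and Retn were near the floor in control 2 as well, at 0.112 FPKM (8 reads) and 0.0888 FPKM (3 reads). Adiponectin (Adipoq) was at 20.4 FPKM in control 2 and at 0 elsewhere, and Pck1 at 16.3 FPKM. The 9 brown adipocyte markers summed to 1065 FPKM in control 2 and 321 to 410 elsewhere, with control 2 highest for 7 of 9. The other 2 were lowest there: Ppargc1a at 7.65 FPKM against 15.8 to 22.8, and Prdm16 at 1.94 against 3.50 to 4.25. Cox8b and Cox7a1, the highest of that list, are also made in heart muscle. Ucp1, which defines brown fat and is named here after its values were seen, was at 213 FPKM in control 2 and at 0 in the other 5 libraries. The part of fat cell RNA in the values of Scd1, Agpat2, Lipe, Bscl2 and Fabp4 in control 2 was not tested. In the 5 libraries without Adipoq, Ucp1 or Cidec, the STZ and control values of those genes are the ones given above.

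**Figure D4:**
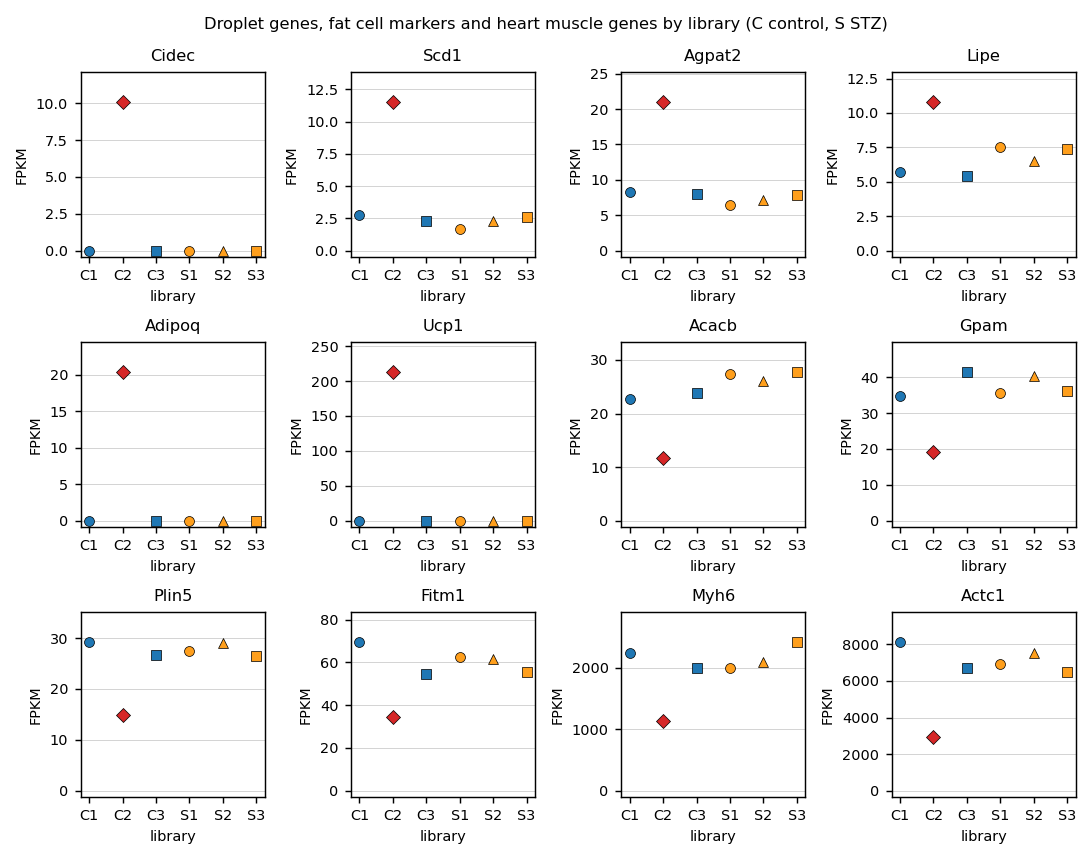
FPKM (y axis, a scale of its own in each panel) in each of the 6 libraries (x axis; C for control, S for STZ), with 1 point per library and no error bar, for 8 lipid genes, the fat cell genes Adipoq and Ucp1 and the heart muscle genes Myh6 and Actc1. Control 2, the diamond, is the highest point for Cidec at 10.1 FPKM, Scd1 at 11.5 and Agpat2 at 21.03, and the lowest for Acacb at 11.7 and Gpam at 19.2.

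The promoter letters of genes that were high (Cidec, Agpat2) and low (Gpam, Acacb, Plin5, Fasn) in control 2 are shown as examples, chosen after their values were seen. RefSeq promoter windows were matched for 32 of the 39 genes. Each line gives the 250 bases before an annotated start on GRCm38.p6, 5′ to 3′ on the gene's strand, with capitals for CCAAT or its reverse complement ATTGG, the letters bound by the factor NF-Y. The windows are chr6:113434765-113435014 (minus strand) for Cidec, chr2:26604418-26604667 (minus) for Agpat2, chr19:55127239-55127488 (minus) for Gpam, chr5:114165268-114165517 (plus) for Acacb, chr17:56117549-56117798 (minus) for Plin5 and chr11:120824548-120824797 (minus) for Fasn.
Cidec: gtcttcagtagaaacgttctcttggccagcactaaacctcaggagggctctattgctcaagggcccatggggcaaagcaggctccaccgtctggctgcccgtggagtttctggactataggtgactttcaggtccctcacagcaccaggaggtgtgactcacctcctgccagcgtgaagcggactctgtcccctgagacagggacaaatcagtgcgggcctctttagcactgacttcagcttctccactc
Agpat2: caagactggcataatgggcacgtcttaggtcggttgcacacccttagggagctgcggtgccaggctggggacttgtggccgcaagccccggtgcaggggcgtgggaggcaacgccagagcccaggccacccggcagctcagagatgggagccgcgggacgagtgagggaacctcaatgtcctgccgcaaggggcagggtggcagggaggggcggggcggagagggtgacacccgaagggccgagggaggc
Gpam: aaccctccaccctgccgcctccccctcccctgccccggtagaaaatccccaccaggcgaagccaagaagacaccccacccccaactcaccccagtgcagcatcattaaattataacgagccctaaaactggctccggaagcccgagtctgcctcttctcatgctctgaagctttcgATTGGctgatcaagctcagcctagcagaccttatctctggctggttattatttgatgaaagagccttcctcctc
Acacb: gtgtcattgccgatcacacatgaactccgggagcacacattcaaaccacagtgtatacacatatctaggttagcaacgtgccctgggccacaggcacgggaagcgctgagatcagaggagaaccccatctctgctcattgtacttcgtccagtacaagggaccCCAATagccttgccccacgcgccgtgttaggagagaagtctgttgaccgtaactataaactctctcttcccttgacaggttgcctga
Plin5: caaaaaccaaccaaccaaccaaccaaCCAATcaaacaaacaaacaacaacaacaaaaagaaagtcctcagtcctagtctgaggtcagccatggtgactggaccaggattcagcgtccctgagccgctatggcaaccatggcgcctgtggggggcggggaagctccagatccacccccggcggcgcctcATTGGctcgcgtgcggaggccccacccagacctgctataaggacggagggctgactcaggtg
Fasn: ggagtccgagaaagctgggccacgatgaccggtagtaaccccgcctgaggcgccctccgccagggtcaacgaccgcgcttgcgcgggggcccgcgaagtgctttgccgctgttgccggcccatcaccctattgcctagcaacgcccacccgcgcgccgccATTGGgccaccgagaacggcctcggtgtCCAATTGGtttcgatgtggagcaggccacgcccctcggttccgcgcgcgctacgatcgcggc

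The Fasn window held 3 such matches, of which 2 overlap, the Plin5 window 2, the Gpam and Acacb windows 1 each, and the Cidec and Agpat2 windows 0. Cidec, Gpam and Plin5 have a further annotated start each, whose windows held 0. For Gpam that further window, chr19:55099478-55099727, lies next to the deposited gene (55069734 to 55099451, minus strand). The Gpam window shown lies upstream of it. The Acacb and Cidec windows shown lie inside the deposited genes. Among genes not shown, Bscl2 and Agpat4, which were high in control 2, had a window with 2 matches each, and Fitm1, which was low, had 0. Whether matches go with the direction in control 2 was not tested. Over both strands, CCAAT occurred in 14 of the 45 windows of the 32 matched genes, beside 33.8% of all 32851 promoter windows of this length. Of the other letters searched, the E-box CACGTG occurred in windows of Elovl5, Lipe, Lpin2 and Mgll (6.02% of all windows), the sterol regulatory element TCACNCCAC in 0 (1.05%), and the PPAR-RXR direct repeat in 0 (0.0335%). A match describes letters in this window and is not evidence of binding.

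The regulators and neighbouring enzymes of the pathway gave the same picture, with 0 genes called in either direction in any of 3 lists by limma. At an unadjusted p under 0.05 (limma) there was 1, Mid1ip1, among the 18, 10 and 23 genes tested, where the share over all genes was 2.59%. Without control 2 there were 2 among the 18 regulators and 0 in the other lists, where the share was 3.93%. The splits by sign below stand beside 57.7% positive over all genes, or 49.4% for the split without control 2. Among lipogenic regulators 18 of 19 were tested, 8 with a positive and 10 with a negative fold change (median -0.038). Mid1ip1, which activates acetyl-CoA carboxylase, was at 8.12, 7.60 and 7.002 FPKM in controls and 6.74, 6.07 and 5.42 in STZ hearts. Its groups did not overlap and control 2 lay between the other controls. The log2 fold change was -0.28 (SE 0.112; limma, adjusted p = 0.922; exact permutation p = 0.1), and -0.28 without control 2. Pparg, the master regulator of fat cells, was at 2.65, 4.58 and 2.13 FPKM in controls and 1.79, 2.42 and 2.14 in STZ hearts (log2 fold change -0.36, SE 0.222). Srebf2, the regulator of sterol synthesis, was at 18.2 ± 3.30 FPKM in controls and 18.1 ± 0.402 in STZ hearts, and Rxra, the partner of PPAR receptors, at 14.8 ± 2.28 and 17.2 ± 0.399 (SD, n = 3 each). Without control 2 the log2 fold changes were -0.12 for Pparg, -0.14 for Srebf2 and 0.11 for Rxra.

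All 10 genes of acetyl-CoA and NADPH supply were tested, 5 positive and 5 negative (median -0.042). Mlycd, which breaks down the malonyl-CoA that Acacb makes, was at 29.4, 22.8 and 33.0 FPKM in controls and 35.5, 32.1 and 34.2 in STZ hearts (log2 fold change 0.26, SE 0.153), with control 2 lowest and the groups overlapping. Oxsm, the mitochondrial ketoacyl synthase, was at 4.62 ± 0.871 FPKM in controls and 5.63 ± 0.444 in STZ hearts, and Idh1, a cytosolic source of NADPH, at 25.7 ± 2.24 and 24.1 ± 1.15 (SD, n = 3 each). Without control 2 the log2 fold changes were 0.12 for Mlycd, 0.13 for Oxsm and -0.16 for Idh1. Of 32 other enzymes and droplet proteins 23 were tested, 15 positive and 8 negative (median 0.092; without control 2, 11 positive and 12 negative, median -0.010). Scd4, a desaturase of heart muscle, was at 24.9, 17.2 and 23.2 FPKM in controls and 27.8, 25.9 and 32.6 in STZ hearts. Its groups did not overlap, with a log2 fold change of 0.40 (SE 0.167; limma, adjusted p = 0.922; exact permutation p = 0.1), or 0.24 without control 2. Gpat3, a glycerol phosphate acyltransferase, was at 6.43 ± 1.59 FPKM in controls and 8.30 ± 0.788 in STZ hearts (SD, n = 3 each), with a log2 fold change of 0.34, or 0.17 without control 2. Fabp3, the fatty acid carrier of heart muscle, was at 3018 ± 941 FPKM in controls and 3332 ± 215 in STZ hearts, and Cd36, the fatty acid transporter, at 293 ± 127 and 351 ± 23.7 (SD, n = 3 each). Control 2 was the lowest library for both, and their log2 fold changes went from 0.19 to -0.045 for Fabp3 and from 0.37 to -0.065 for Cd36 without it.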

How the data were processed

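Heart RNA of 6 libraries (3 control, 3 STZ) was compared; groups were read from the treatment labels and replicate numbers from the titles. The values the authors deposited are FPKM-type: multiplied by gene length, 100% of values above 0 were whole numbers of reads (within 0.01) in units of 1 step per library. No header names the unit. The genome build was GRCm38 (mm10) per the submitters' processing notes. Not given in the sources used here are the aligner, the counter, the strand setting and whether reads or fragments were counted. Recovered totals were 16707268 to 18082599 reads, and a gene at 0 is limited to 3 reads, counting error only. Genes with 1 FPKM or more in at least 3 libraries (12431) were tested on log2(FPKM + 1), which understates changes of low genes, with limma 3.58.1 (trend, two-sided, BH over all tested, threshold 0.05) in R 4.3.3. Exact permutation tests used the 20 assignments of 3 of 6 libraries. The fit was tested on simulated data with known changes. Alternatives covered the pseudocount, filter, scaling, replicate block, array weights, robust variances, voom and each library left out.

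The members, marker lists and naming rule were chosen with earlier results of these data known. The rule named all members; in full, per library, the 2 most abundant per role group, those whose groups did not overlap and those with an unadjusted p under 0.05; and from other pathway lists the 2 with the lowest p and the 2 with the highest mean. Of the members, 33 of 39 had the position and length of GENCODE M21, the others lying on chromosome 19; overlaps and shared 50-base windows come from it. Promoter windows are from RefSeq (GRCm38.p6). Figures used matplotlib 3.10.9 in Python 3.11.15.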

Additional observations from a re-analysis of the deposited data

How the results depend on the processing

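No lipid gene passed the threshold in any setting run (smallest limma adjusted p 0.690, for Acacb and others without control 3), and the number with a positive fold change stayed between 14 and 23. Over all genes 3 passed. With the replicate block 0 passed (373 at an unadjusted p under 0.05), with array weights 8, and 2 to 5 with a library left out. The median log2 fold change of the lipid genes, 0.026, was 0.060 with a filter on a mean of 5 FPKM, -0.038 scaled to recovered read totals, -0.014 with array weights and -0.016 to 0.052 with a library left out; the cause was not tested. Deviations from the group means correlated at 0.021, -0.041 and 0.092 between same-numbered libraries and at -0.14 to 0.081 between the others. Control 2 weighs on the deviations of all controls, so these values cannot decide whether the numbers pair the libraries. The replicate block changed no call among the lipid genes. Of 605 gene and setting combinations, 59 changed sign, over 24 genes, none past the threshold and none larger than 0.22. With array weights these were Acly 0.029, Fasn -0.082, Scd2 -0.023, Fads1 -0.11, Fads3 -0.071, Elovl1 0.026, Agpat4 0.16, Lpin1 -0.020, Dgat2 -0.017, Abhd5 -0.059, G0s2 0.12, Plin2 0.12, Fitm1 -0.039, Fitm2 -0.060 and Bscl2 0.12. Scaled to read totals they were Fads1 -0.054, Lpin2 -0.018, Pnpla2 -0.030, Lipe -0.038, Plin3 -0.039 and Fitm2 -0.0022, and with quantile normalization Fads1 -0.013 and Plin3 -0.0021. With a library left out the log2 fold change ran for Abhd5 from -0.054 to 0.14, Acaca from -0.12 to 0.084, Acly from -0.039 to 0.022, Agpat4 from -0.18 to 0.13, Bscl2 from -0.27 to 0.15, Dgat2 from -0.039 to 0.24, Elovl1 from -0.087 to 0.048, Elovl5 from -0.15 to 0.021, Fads1 from -0.057 to 0.084, Fads3 from -0.041 to 0.20, Fasn from -0.075 to 0.36, Fitm1 from -0.045 to 0.45, Fitm2 from -0.020 to 0.16, G0s2 from -0.23 to 0.22, Gpam from -0.026 to 0.51, Hilpda from -0.15 to 0.12, Lipe from -0.13 to 0.31, Lpin1 from -0.088 to 0.26, Plin2 from -0.080 to 0.074, Plin3 from -0.050 to 0.067, Plin5 from -0.016 to 0.45, Pnpla2 from -0.0045 to 0.071 and Scd2 from -0.017 to 0.32. An edgeR fit of the recovered reads was not run, though voom was run on them, and protein identity between members was not computed. Depth limits Elovl7, with 6 to 48 reads per library.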

Other observations

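Genes seen in a single library were counted over the whole table, at 1 FPKM or more in that library and at 0 reads in each of the other 5. Control 2 held 89 such genes, of which 13 were protein-coding. Many of the 89 were segments of T cell receptor genes, the highest being Trbj1-5 at 26.2 FPKM. The other 5 libraries held 13 to 21 such genes, with 1 protein-coding gene in STZ 3 and 0 in the rest. The protein-coding ones in control 2, named after their values were seen, included the fat cell genes Ucp1 at 213 FPKM, Adipoq at 20.4, Cidec at 10.1, Adig at 6.12 and Cfd at 5.88. They also included the neuropeptide genes Npy at 6.94 and Cartpt at 3.81 FPKM, and Hamp, which encodes the iron-regulating hormone hepcidin, at 6.50. Plin1, the droplet coat protein of fat cells, was at 11.6 FPKM in control 2 and at 0 in 4 of the other libraries and 0.0123 FPKM in control 3. Cebpa, a regulator of fat cell formation, was at 13.7 FPKM in control 2 against 1.30 to 1.64 elsewhere, and Thrsp, a lipogenic protein, at 11.2 against 1.11 to 1.63.

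Insig1, which holds back the processing of sterol regulatory element binding proteins, was at 15.8, 10.04 and 18.0 FPKM in controls 1 to 3 and 11.6, 13.9 and 12.7 in STZ 1 to 3, and is named after its values were seen. Its groups overlapped through control 2, with a log2 fold change of -0.15 (limma, adjusted p = 0.922), and did not overlap without it, at -0.38 (limma, adjusted p = 0.9999). Without control 2, 3 of the 18 tested regulators had every STZ value below the controls, where 8.55% of all genes tested did.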
